A study of Mus musculus with 18 samples.

Results

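The constitutive proteasome subunits were the genes whose symbol in the platform's probe annotation was Psma, Psmb, Psmc or Psmd followed by a number. Psmb8, Psmb9 and Psmb10, which encode the inducible catalytic subunits, were left out. Of 36 such symbols with a probe, 32 had a probe detected (detection p under 0.05) on both arrays of at least 1 group, and the brightest probe stood for each gene. These 32 genes were among 10980 genes that passed the same filter. They comprised 7 genes of the alpha ring and 7 of the beta ring of the 20S core, 5 ATPase genes, 3 other base genes and 7 lid genes of the 19S particle, and 3 genes of assembly factors (Psmd5, Psmd9 and Psmd10). Psma6, Psmb11, Psmc6 and Psmd11 were not detected on both arrays of any group. Closest above that limit were Psma5 and Psmd6, detected on 8 of 18 arrays each, Psmc1 on 13 and Psmc2 on 17, while the closest below it was Psmb11, on 2. The other 28 were detected on all 18 arrays.

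Messenger RNA of mouse embryonic stem (ES) cells was measured on 18 one-colour Illumina Sentrix Mouse-6 v1.1 BeadChip arrays, in 9 groups of 2. In the ideltaCnAES cells, withdrawal of tetracycline (Tc) induces deltaCnA, an active form of calcineurin A, and arrays were made after 0, 1 and 4 days. CGR8 cells were sampled 0, 1 and 3 days after withdrawal of leukaemia inhibitory factor (LIF), either with cyclosporin A (CsA), an inhibitor of the phosphatase calcineurin, or without it. LIF keeps mouse ES cells undifferentiated in culture, and the series asked which genes calcineurin-NFAT signalling regulates in them. All groups were of strain 129P2/Ola and line CGR8. The labels do not give the promoter that drives deltaCnA, whether the inducible line was 1 clone, or whether cells of the day 0 CsA group had received CsA and for how long. They also do not say that the 2 replicates of a group were separate cultures, so every p-value rests on the spread between arrays alone, and that spread may be technical.

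The proteasome is the protease complex that degrades proteins marked with ubiquitin. Its 20S core is a barrel of alpha rings, which gate the entrance, around beta rings, in which Psmb5, Psmb6 and Psmb7 carry the active sites. The 19S particle caps the barrel: its base holds the ring of ATPases (Psmc genes) that unfold substrates, and its lid holds the deubiquitinase Psmd14. In cells exposed to interferon, Psmb8, Psmb9 and Psmb10 can take the places of Psmb5, Psmb6 and Psmb7, which gives the immunoproteasome. Human ES cells are known for a high proteasome activity that declines as they differentiate.

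Promoter sequences of RefSeq (GRCm38.p6, 250 bases before to 50 after the transcription start, written 5′ to 3′ on the gene's strand) were given for 25 of the 32 genes. Psma8, Psmb1, Psmb2, Psmb7, Psmc3, Psmd3 and Psmd7 had none. A search on both strands looked for TGACNNNGC, the core of the element bound by Nfe2l1 and related factors, and for CCAAT, the element bound by NF-Y. The letters TGACNNNGC stood in 4 of the 25 promoters (16%), those of Psmb5, Psmb6, Psmd12 and Psmd9, and in 12.5% of the promoters of 27025 genes. CCAAT stood in 10 of the 25 (40%) and in 37.9% of the 27025, so neither share lay far from that of all genes. The promoters of Psmd12 (chr11:107479278-107479577, plus strand), Psmb5 (chr14:54617946-54618245, minus strand) and Psmb6 (chr11:70525107-70525406, plus strand) are shown because Psmd12 had the largest fall among the subunits called without CsA, while both catalytic genes, with the same letters in the window, were called in no comparison. The promoter of Psmd14 (chr2:61711444-61711743, plus strand) is shown as a falling gene with 3 CCAAT matches, of which 2 overlap. Capitals mark TGACNNNGC in the first 3 sequences, on the opposite strand in Psmd12, and CCAAT or its reverse complement in the last.
Psmd12: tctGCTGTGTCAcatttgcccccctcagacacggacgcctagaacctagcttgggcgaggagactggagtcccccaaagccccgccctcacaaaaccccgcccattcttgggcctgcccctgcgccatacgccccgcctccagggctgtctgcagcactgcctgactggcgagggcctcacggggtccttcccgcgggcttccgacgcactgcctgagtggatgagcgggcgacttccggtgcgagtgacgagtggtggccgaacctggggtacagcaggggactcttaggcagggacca
Psmb5: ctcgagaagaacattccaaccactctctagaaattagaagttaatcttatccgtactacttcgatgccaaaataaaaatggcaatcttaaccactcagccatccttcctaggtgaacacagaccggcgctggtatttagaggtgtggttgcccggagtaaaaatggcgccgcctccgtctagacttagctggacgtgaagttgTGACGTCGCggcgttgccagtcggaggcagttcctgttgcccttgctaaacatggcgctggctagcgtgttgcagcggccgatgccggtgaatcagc
Psmb6: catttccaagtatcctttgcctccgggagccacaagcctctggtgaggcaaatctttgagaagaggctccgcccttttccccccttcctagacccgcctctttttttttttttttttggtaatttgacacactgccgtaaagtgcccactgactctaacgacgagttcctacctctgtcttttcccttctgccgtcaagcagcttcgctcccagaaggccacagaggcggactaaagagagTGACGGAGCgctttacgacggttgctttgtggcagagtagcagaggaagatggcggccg
Psmd14: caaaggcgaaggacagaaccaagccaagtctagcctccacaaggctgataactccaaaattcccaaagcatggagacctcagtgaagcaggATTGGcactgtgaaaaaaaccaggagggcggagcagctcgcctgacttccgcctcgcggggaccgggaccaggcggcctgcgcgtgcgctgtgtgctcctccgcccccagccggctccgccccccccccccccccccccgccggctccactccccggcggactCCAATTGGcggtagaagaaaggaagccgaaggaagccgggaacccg

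The arrays were even in quality, with a mean intensity of 286.9 to 484, 40.43% to 44.07% of probes detected, and a correlation between replicates of 0.9922 to 0.9957 (over genes, which are not independent replicates). The number of arrays limits the precision. As a check of the label, 7 of 8 ES cell markers had a kept probe, and all 7 were detected on both day 0 arrays of both LIF courses. Their summed intensity at day 3 was 24796 to 29873 with CsA and 16857 to 18086 without, against 33542 to 36297 and 37174 to 41919 at day 0 of the same courses. These and the following sums are of deposited intensities, not normalized, with values under 0 set to 0. Without CsA the ES cell markers Nanog (-1.44), Sox2 (-0.44), Zfp42 (-2.20) and Esrrb (-1.87) were called lower at day 3. Pou5f1 (-0.10), Tdgf1 (-0.54) and Utf1 (0.35) were not called. With CsA Nanog (-0.32), Zfp42 (-0.85) and Esrrb (-0.41) were also called lower at day 3. Sox2 (0.17), Pou5f1 (-0.14), Tdgf1 (-0.59) and Utf1 (0.07) were not called there. Of 6 fibroblast markers, 2 had a kept probe (Dcn and Thy1), with sums at day 3 of 108.4 to 116.4 with CsA and 398.9 to 475.0 without, against 80.67 to 146.9 and 165.9 to 197.8 at day 0. Dcn was called higher at day 3 in both courses (at least 1.40-fold with CsA and 5.66-fold without), and Thy1 was called in neither. Of the interferon response markers only Irf1 (1 of 6) had one, with 456.7 to 1290 at day 3 with CsA and 2707 to 3752 without, against 284.1 to 327.6 and 492.1 to 519.6 at day 0. Primitive endoderm markers (3 of 6 kept, Gata4, Gata6 and Sox7) summed to 204.7 to 229.6 at day 3 with CsA and 133.3 to 146.9 without, against 129.3 to 133.4 and 119.3 to 128.2 at day 0. Of these, Gata6 was called higher with CsA than without at day 3 (at least 1.83-fold, adjusted p = 2.25e-05). Gata4 was called higher at day 3 than at day 0 with CsA (0.48, adjusted p = 0.0333). Sox7 went the other way without CsA, where it was called lower at day 3 than at day 0 (at least 1.09-fold, adjusted p = 0.00472). With CsA, Sox7 was not above background on either day and was not called. Trophectoderm markers (2 of 4 kept) summed to 83.76 to 101.1 at day 3 with CsA and 107.1 to 124.1 without, against 72.61 to 82.93 and 72.17 to 92.51 at day 0. The part of these markers in the results on the proteasome genes was not tested, and in bulk RNA fewer cells of a type and less RNA per cell cannot be told apart.

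**Figure D1:**
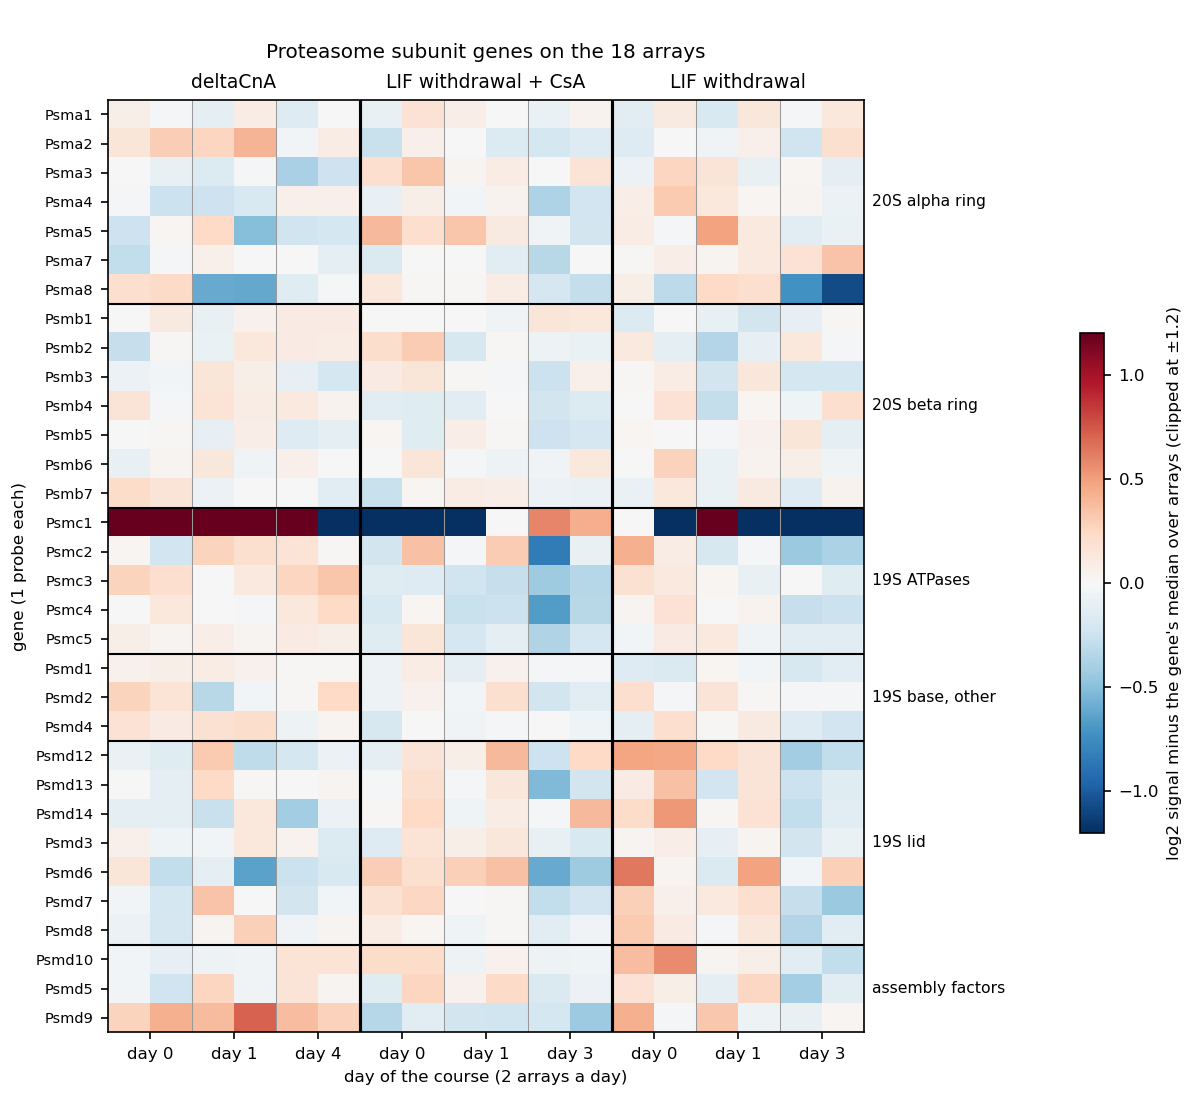
Each row is 1 of the 32 genes and each column 1 of the 18 arrays, grouped by course and day; the colour gives the log2 signal minus the gene's median over the arrays, clipped at 1.2 either way. Psmd12, Psmd7 and Psma8 are below their medians on both day 3 arrays of LIF withdrawal without CsA, and Psmc1 is the row whose replicates differ most.

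Most of the 32 genes moved little. The range of the 9 group means, on the normalized log2 scale used for all values here unless stated otherwise, had a median of 0.49 over the 32 genes and 0.76 over all 10980. It was under 1 for 30 of the 32 genes (93.8%), against 67.6% of all genes. The exceptions were Psmc1, a base ATPase, with a range of 4.72, and Psma8, a variant of the alpha ring subunit Psma7 best known from testis, with 1.12. Psma1, of the alpha ring, had the narrowest range, 0.14, followed by the catalytic subunit Psmb6 with 0.17. Psmb6 read 13.43 on its lowest array, 13.52 at the median and 13.79 on its highest.

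After 3 days without LIF, 5 of 7 lid genes, 2 of 5 ATPase genes and 1 of 14 core genes were lower. At an adjusted p under 0.05 (limma, Benjamini-Hochberg over all 10980 genes), 10 of the 32 genes were lower at day 3 than at day 0 without CsA and 0 were higher, and 14 had an unadjusted p under 0.05. In the same comparison 38.2% of all genes passed, 18.4% as higher and 19.8% as lower. The share of the 32 genes called in either direction (31.2%) was below the 38.2% of all genes. Since all their calls were lower, the share called lower was also 31.2%, above the 19.8% of all genes. Neither difference was tested. The median change over the 32 genes was -0.21, against -0.05 over all genes. The lid gave 5 of its 7 genes as lower, with a median change of -0.45, and the 20S core 1 of 14 (Psma8), with a median of -0.05. The whole 19S particle gave 7 of 15, with a median of -0.37. These counts describe the arrays, and the difference between the sub-complexes was not tested. The arrays of the 2 days did not overlap for 18 genes that were lower and 1 that was higher at day 3, against 35% and 29.9% of all genes.

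Among the called genes, Psmd12, a helical scaffold subunit of the lid, had the largest fall. It read 6.95 and 6.94 at day 0, 6.71 and 6.63 at day 1, and 6.06 and 6.18 at day 3. Both day 3 arrays were below every other array of the course, and the change from day 0 was -0.83 ± 0.20 (SE, n = 2 arrays a group, adjusted p = 0.00241, 1.77-fold lower). Psmd14, the deubiquitinase that removes ubiquitin chains from substrates, read 8.17 and 8.46 at day 0, 7.96 and 8.12 at day 1, and 7.66 and 7.83 at day 3. Its day 3 arrays lay below those of days 0 and 1, with a change of -0.58 ± 0.18 (SE, n = 2 arrays a group, adjusted p = 0.0116). Psmd7, the lid subunit that pairs with Psmd14, read 12.52 and 12.29 at day 0, 12.35 and 12.43 at day 1, and 11.96 and 11.79 at day 3. Its arrays of days 0 and 1 overlapped and those of day 3 were lower, with a change from day 0 of -0.53 ± 0.12 (SE, n = 2 arrays a group, adjusted p = 0.000797). Of its other kept probes, 1 also fell (-0.64, adjusted p = 0.00166) and 1, dimmer, gave 0.20 (adjusted p = 0.296). Here and below, other probes of a gene come from a separate limma fit over all 21691 kept probes, adjusted over those probes. The calls of Psmd12 and Psmd7 were kept whichever array was left out, while that of Psmd14 was lost without replicate 2 of day 0 or replicate 1 of day 3.

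Psmd13, a lid subunit, read 12.36 and 12.47 at day 3, against 12.72 and 12.97 at day 0. The groups did not overlap, and the change was -0.43 ± 0.13 (SE, n = 2 arrays a group, adjusted p = 0.0130), while its second probe gave -0.30 (adjusted p = 0.186). Psmd8, another lid subunit, read 8.67 and 8.89 at day 3, against 9.34 and 9.12 at day 0, a change of -0.45 ± 0.13 (SE, n = 2 arrays a group, adjusted p = 0.00887). The remaining lid genes, Psmd3 and Psmd6, gave -0.21 and -0.21 and were not called. The call of Psmd13 was lost without replicate 2 of day 0 or replicate 1 of day 3, and that of Psmd8 without replicate 1 of either day. Leaving out 1 array of the comparison in turn left 2 to 5 lid genes lower. The fewest came without the day 3 array of replicate 1, where fewer of all genes were called as well.

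**Figure D2:**
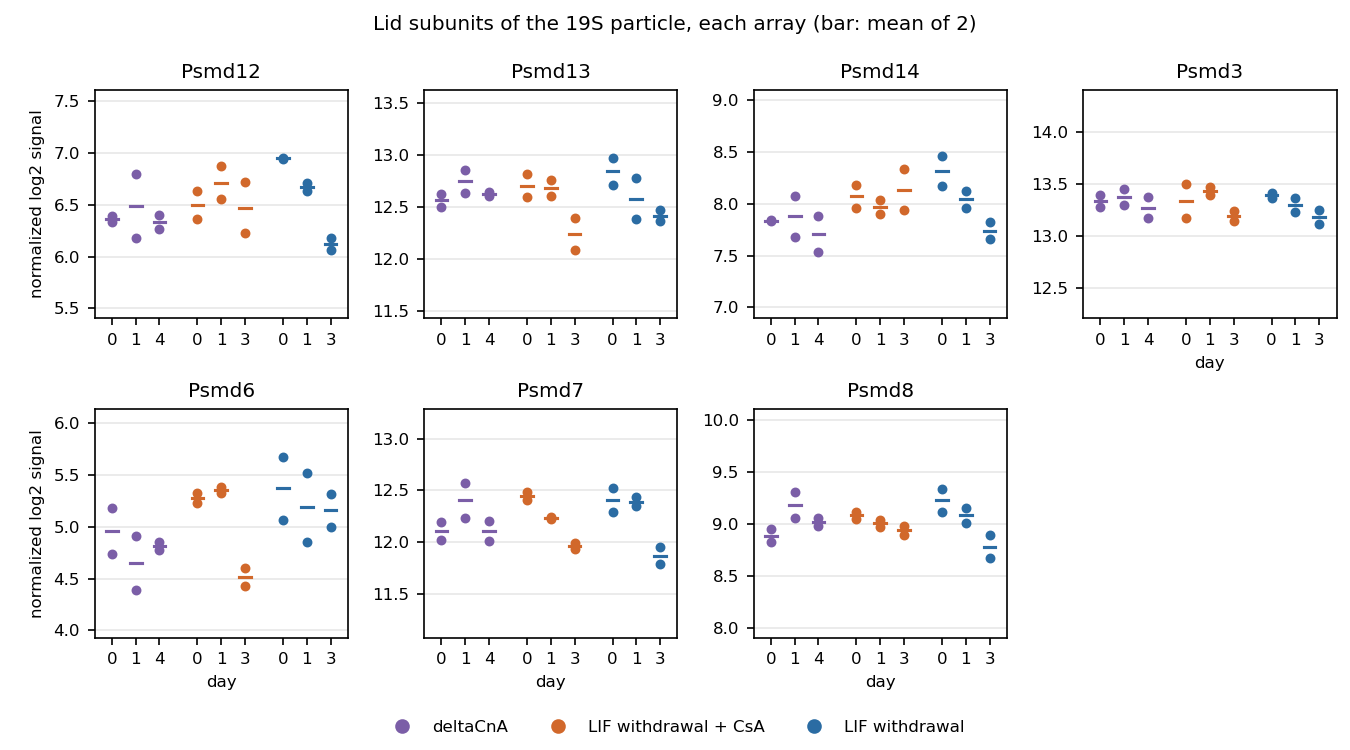
Each panel is a lid gene, with the normalized log2 signal on the vertical axis and the day on the horizontal axis; points are arrays, bars the mean of 2, and colours the courses. For Psmd12 and Psmd14 the day 3 arrays overlap those of day 0 with CsA (orange) and lie below them without CsA (blue), while Psmd13 and Psmd7 are lower in both courses.

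In the base, Psmc2 and Psmc4 fell without CsA. Psmc4, an ATPase, read 12.69 and 12.71 at day 3, against 13.004 and 13.14 at day 0, so that the groups did not overlap, and the change was -0.37 ± 0.11 (SE, n = 2 arrays a group, adjusted p = 0.00868). Psmc2, a dim ATPase probe, read 5.51 and 5.58 at day 3, against 6.39 and 6.05 at day 0 (-0.67 ± 0.23, adjusted p = 0.0226). The call of Psmc4 was lost without replicate 2 of day 0, and that of Psmc2 without either day 3 array or replicate 1 of day 0. Psmc3 and Psmc5 gave -0.22 and -0.17 and were not called, although the arrays of the 2 days did not overlap. The scaffold subunits Psmd1 and Psmd2 gave 0.00 and -0.11, and the ubiquitin receptor Psmd4 -0.24, none of them called.

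Among the assembly factors, which help the base to form and leave before the particle is complete, Psmd10 and Psmd5 fell. Psmd10 read 9.55 and 9.74 at day 0, 9.20 and 9.24 at day 1, and 9.04 and 8.88 at day 3. The arrays of the 3 days did not overlap, and Psmd10 was the only one of the 32 genes called at day 1, when 8.42% of all genes were. Its change was -0.42 ± 0.12 at day 1 (adjusted p = 0.0226) and -0.68 ± 0.12 at day 3 (adjusted p = 4.89e-05, SE, n = 2 arrays a group). The call at day 1 was lost without replicate 2 of day 0 or either replicate of day 1, and both other probes of Psmd10 gave no call at day 1 (-0.12 and -0.20, adjusted p = 0.817 and 0.588). At day 3 both other probes also fell (-0.46 and -0.42, adjusted p = 0.0440 and 0.0420). Psmd5 read 9.13 and 9.42 at day 3, against 9.72 and 9.61 at day 0 (-0.39, adjusted p = 0.0480), and it was called in 5 of 9 other settings and without 1 of the 4 arrays, replicate 2 of day 3. In the fit over all kept probes Psmd5 had an adjusted p of 0.0537, above the threshold. Psmd9 gave -0.23 and was not called.

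In the 20S core only Psma8 was called at day 3 without CsA by its brightest probe. The day 3 minus day 0 differences of the other 13 core genes lay between -0.26 (Psmb3, a structural beta subunit, adjusted p = 0.0779) and 0.21 (Psma7, an alpha ring subunit). Other kept probes of 2 core genes passed where the brightest did not, a dim one of Psmb2 (-0.53, adjusted p = 0.0475, against 0.05 for the brightest) and a bright one of Psmb7 (0.30, adjusted p = 0.0177, against -0.08). The probes differed in signal, with medians over the arrays from 5.03 to 13.999 on the log2 scale. In a split at a median signal of 11, chosen after seeing the data, 0 of 12 bright core genes were lower, with a median change of -0.00. Of 8 bright genes of the 19S particle, 3 were lower (Psmc4, Psmd13 and Psmd7), with a median of -0.23. Below that signal 1 of 2 core genes (median -0.46) and 4 of 7 genes of the 19S particle (median -0.58) were lower. The shares of all genes at these signal levels are not given here. With arrays scaled to their medians in place of quantile normalization, 16 of the 32 genes were lower. The core gave 3 (median change -0.15) and the 19S particle 11 (median -0.49). Over all 10980 genes 2272 were lower in that setting, with a median change of -0.04.

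The course with CsA shares no array with the course without it, and 6 genes were lower and 1 higher at day 3 than at day 0. In that comparison 29.6% of all genes were called, 14.9% as higher and 14.7% as lower, and the share of the 32 genes was 21.9%. The genes lower with CsA were Psmc4, Psmd13, Psmd7, Psmd6, Psma4 and Psmb2, and the higher one was Psmc1. Psmc4, Psmd13 and Psmd7 were called lower in both courses, which is 50% of the 6 genes lower with CsA and 30% of the 10 lower without it. Over all genes the corresponding shares were 56.9% of 1609 and 42.1% of 2171. With only 6 and 10 subunit genes, no difference from those shares can be read. The median change was -0.17 over the 32 genes, -0.13 in the core and -0.17 in the 19S particle, against -0.01 over all genes. The arrays of day 3 and day 0 did not overlap for 17 genes that were lower, against 31.2% of all genes, and for 2 that were higher, against 31.3%.

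Psmd7 read 12.41 and 12.48 at day 0, 12.22 and 12.24 at day 1, and 11.93 and 11.997 at day 3 with CsA. The arrays of the 3 days did not overlap, and the change at day 3 was -0.48 ± 0.12 (SE, n = 2 arrays a group, adjusted p = 0.00306). Psmd13 read 12.09 and 12.39 at day 3, against 12.60 and 12.81 at day 0 (-0.47 ± 0.13, adjusted p = 0.0103), and its second probe also fell (-0.53, adjusted p = 0.0188). Psmc4 read 12.30 and 12.64 at day 3, against 12.78 and 12.99 at day 0 (-0.42 ± 0.11, adjusted p = 0.00559). For all 3 genes every day 3 array was below both day 0 arrays. Psma4, of the alpha ring, changed by -0.29 (adjusted p = 0.0414) and Psmb2, of the beta ring, by -0.33 (adjusted p = 0.0421). Psmd6 read 4.43 and 4.60 at day 3, not above background on either array, against 5.33 and 5.23 at day 0, a fall of at least 1.12-fold (adjusted p = 0.0169). In such bounds the dim group is set at the lowest signal detected on each array. Psmd6 passed the detection filter only through the CsA groups of days 0 and 1, where it was higher than at day 3. Its fall from day 0 is therefore no independent evidence. Without replicate 2 of day 0, or without replicate 1 of day 3, the 7 calls became 2, and Psmd7 was called in both cases. Psmc1 kept its call without any array, Psmd6 lost it also without replicate 1 of day 0, and Psmb2 lost it without any 1 of the 4 arrays.

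Psmd12 and Psmd14 were not called with CsA. Psmd12 read 6.22 and 6.71 at day 3, against 6.36 and 6.63 at day 0 with CsA, and the groups overlapped (-0.03 ± 0.20). Psmd14 read 7.94 and 8.34 at day 3, against 7.96 and 8.18 at day 0 with CsA, and also overlapped (0.06 ± 0.18). The test of the difference itself, the change with CsA minus the change without, gave 0.80 ± 0.29 for Psmd12 (95% interval 0.199 to 1.398, adjusted p = 0.0654) and 0.64 ± 0.25 for Psmd14 (0.13 to 1.16, adjusted p = 0.0876). Neither passed the threshold, so a difference in response to CsA is not shown for them, and the intervals do not show equal responses either. In that test at day 3 only Psmc1 passed among the 32 genes by the brightest probes, with 6 at an unadjusted p under 0.05, and 15.3% of all genes passed. Without replicate 1 of day 3 with CsA, 3 of the 32 genes passed. At day 1 limma called 0 of the 32 genes, with 0 at an unadjusted p under 0.05, and 0.0729% of all genes.

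**Figure D3:**
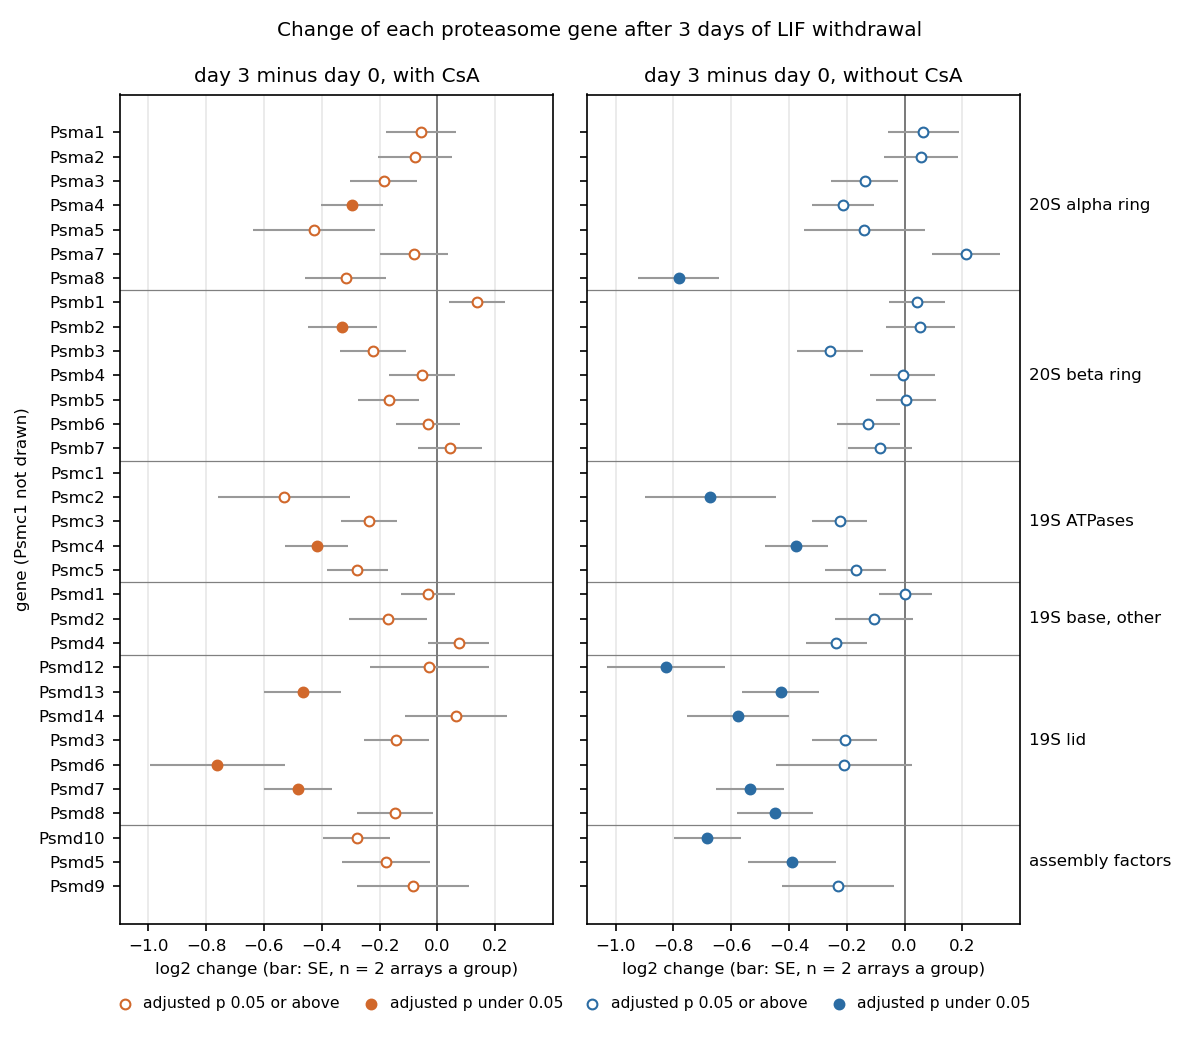
Each point is the log2 change of a gene from day 0 to day 3 of LIF withdrawal, with CsA (left) and without (right); bars are standard errors from the fit with 2 arrays a group, and filled points have an adjusted p under 0.05. Without CsA 5 of 7 lid genes are filled and below 0, and in the core only Psma8 is. With CsA 3 lid genes are filled, among them Psmd6, which was not above background at day 3.

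Set directly against the arrays without CsA at day 3, the arrays with CsA gave 2 of the 32 genes as higher (Psma8 and Psmc1) and 4 as lower (Psma7, Psma4, Psmc3 and Psmd6), while 38.1% of all genes were called, 19% as higher and 19.1% as lower. Psma7 read 12.14 and 12.47 with CsA, against 12.65 and 12.82 without it. The groups did not overlap, and the difference was -0.43 ± 0.12 (SE, n = 2 arrays a group, adjusted p = 0.00538). Psma4 differed by -0.28 (adjusted p = 0.0393). The second probe of Psmd13 passed as well (-0.49, adjusted p = 0.0257), while its brightest gave -0.17. Psmd6, below background on both arrays with CsA and detected on 1 of 2 without it, was at least 1.03-fold lower (adjusted p = 0.0341). Without replicate 1 of the CsA day 3 group, Psma7, Psma4, Psmc3 and Psmd6 were not called, and fewer of all genes were called as well. Psma7 also lost its call without replicate 2 of day 3 without CsA, Psma4 without either array of that group, and Psmd6 without that replicate 2 or replicate 2 of day 3 with CsA. The calls of Psma8 and Psmc1 were kept whichever array was left out.

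Psmc3, a base ATPase, was called lower with CsA at days 0 and 3. At day 0 it read 12.15 and 12.14 with CsA, against 12.47 and 12.40 without, and it was the only one of the 32 genes called there, when 13.2% of all genes were (-0.30 ± 0.10, SE, n = 2 arrays a group, adjusted p = 0.0429). That call was lost when any 1 of the 4 arrays was left out. In the limma fit over all kept probes Psmc3 at day 0 had an adjusted p of 0.0531, above the threshold. A dimmer probe of Psmd9 passed in that fit at day 0 (-0.77, adjusted p = 0.0236), while its brightest gave -0.44 (adjusted p = 0.140). All called genes of that comparison split into 678 higher and 769 lower, and into 507 and 957 with median scaling. At day 3 Psmc3 read 11.86 and 11.95 with CsA, against 12.28 and 12.15 without (-0.31 ± 0.10, adjusted p = 0.0131), a call lost without replicate 1 of either group. In neither comparison did its groups overlap. Nor did they at day 1, where Psmc3 read 12.06 and 12.02 with CsA, against 12.31 and 12.20 without, a difference of -0.22 that was not called. At day 1 limma called 0 of the 32 genes between CsA and no CsA, with 2 at an unadjusted p under 0.05, and 10.7% of all genes. Day 1 against day 0 with CsA also gave 0, with 2 at an unadjusted p under 0.05, and 4.53% of all genes.

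Psma8 was the subunit gene that differed in all 3 kinds of comparison. It read 9.18 and 8.80 at day 0, 9.35 and 9.31 at day 1, and 8.38 and 8.03 at day 3 without CsA. Its day 3 arrays were below all others of the course (-0.78 ± 0.14, SE, n = 2 arrays a group, adjusted p = 8.72e-05), and its second probe also fell (-0.47, adjusted p = 0.0112). With CsA it read 8.91 and 8.82 at day 3, above both day 3 arrays without CsA, a difference of 0.66 ± 0.14 (adjusted p = 0.000631) that uses the same day 3 arrays as the fall. The second probe differed by 0.32 (adjusted p = 0.0879). The change over time with CsA was not called (-0.32, adjusted p = 0.0945), although the second probe was (-0.44, adjusted p = 0.0231), and the difference between the changes was 0.47 ± 0.20 (adjusted p = 0.121).

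In ideltaCnAES cells Psma8 read 9.31 and 9.34 at day 0, 8.51 and 8.501 at day 1, and 8.96 and 9.10 at day 4 of induction. The day 1 arrays lay below all other arrays of the course, with a change of -0.82 ± 0.14 (SE, n = 2 arrays a group, adjusted p = 0.000717), and the second probe gave -0.71 (adjusted p = 0.00271). By the brightest probes, Psma8 was the only one of the 32 genes called at day 1, when 11.2% of all genes were, and its call was kept whichever array was left out. Without replicate 2 of day 1, 3 of the 32 genes were called. Psmd2, Psmd7 and Psmd8 had an unadjusted p under 0.05 there, with differences of -0.40, 0.30 and 0.30 and adjusted p of 0.0587 or above. Another bright probe of Psmd7 passed there (0.50, adjusted p = 0.0365). At day 4 limma called 0 of the 32 genes, with 3 at an unadjusted p under 0.05 (Psma3, Psma8 and Psmb7), and 3.42% of all genes. The median change of the 32 genes was 0.03 at day 1 and -0.03 at day 4, against 0.01 and 0.01 over all genes.

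Psmc1 stands apart because its replicates disagreed. Without CsA it read 7.91 and 5.59 at day 0, 9.13 and 4.98 at day 1, and 4.62 and 4.79 at day 3. The second day 1 array and both day 3 arrays were not above background, with deposited intensities of 11.1, 3.24 and 10.2, against 523 on the first day 1 array. With CsA it read 4.78 and 4.65 at day 0, where neither array was above background, 5.44 and 7.92 at day 1, and 8.498 and 8.35 at day 3. In ideltaCnAES cells it read 9.46 and 9.40 at day 0, 9.44 and 9.21 at day 1, and 9.21 and 6.70 at day 4. The spread within groups (SD 1.399) was larger than that of any other of the 32 genes, and the gene has 1 kept probe.

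The 2 CsA day 3 arrays of Psmc1 lay close together. They were at least 9.61-fold above the CsA day 0 arrays (adjusted p = 0.00289) and at least 10.3-fold above the day 3 arrays without CsA (adjusted p = 0.00196). The fitted difference between the changes was 5.75 ± 1.26 (adjusted p = 0.00284), which is no bound, since it rests on groups below background. Without CsA the day 3 arrays were at least 3.22-fold below the day 0 mean, and the fit did not pass (adjusted p = 0.0766). Each of the 3 called results of Psmc1 was kept when any single array was left out. The cause of the disagreement between replicates was not tested.

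**Figure D4:**
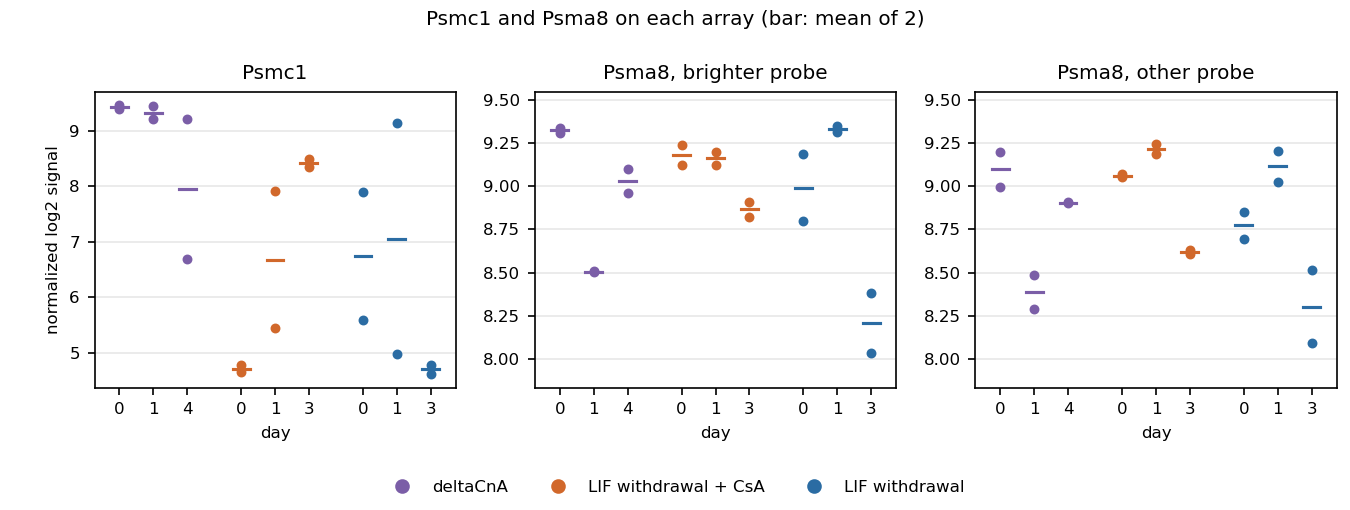
Normalized log2 signal of Psmc1 (left) and of both kept probes of Psma8 (middle and right) on each array, by day and course; points are arrays and bars the mean of 2. Replicates of Psmc1 lie up to several log2 units apart, as at day 1 without CsA (9.13 and 4.98), while both Psma8 probes are low at day 3 without CsA and at day 1 of deltaCnA induction.

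The catalytic genes Psmb5 (chymotrypsin-like activity), Psmb6 (caspase-like) and Psmb7 (trypsin-like) were called in none of the 11 comparisons by their brightest probes. Psmb7 has 2 other bright kept probes, and 1 of them passed in 3 comparisons: day 3 against day 0 without CsA (0.30, adjusted p = 0.0177), CsA against no CsA at day 0 (0.35, adjusted p = 0.0207), and the difference between the courses at day 3 (-0.45, adjusted p = 0.0285). The brightest probe gave -0.08, -0.15 and 0.13 in the same comparisons, opposite in sign, so the probes of Psmb7 disagree. Psmb5 read 11.93 and 11.68 at day 3 without CsA, against 11.81 and 11.79 at day 0, and the groups overlapped (0.01, 95% interval -0.21 to 0.22). Psmb6 read 13.59 and 13.46 at day 3, against 13.51 and 13.79 at day 0, and overlapped too (-0.13, 95% interval -0.35 to 0.10). Psmb7 read 13.33 and 13.52 at day 3, against 13.40 and 13.61 at day 0, likewise overlapping (-0.09, 95% interval -0.31 to 0.14). The difference of Psmb5 nearest to a call was between CsA and no CsA at day 3, where it read 11.54 and 11.59 with CsA, against 11.93 and 11.68 without (-0.24 ± 0.10, adjusted p = 0.0693).

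Their inducible counterparts, which come from a list of related genes, moved far more. Psmb8, the counterpart of Psmb5, read 5.16 and 4.79 at day 0, detected on 1 of 2 arrays, 5.91 and 5.84 at day 1, and 10.33 and 10.37 at day 3 without CsA. At day 3 it was at least 36.8-fold above day 0 (n = 2 arrays a group, adjusted p = 2.5e-15). With CsA Psmb8 read 7.39 and 7.96 at day 3, at least 5.72-fold above day 0 (adjusted p = 3e-10) and below both day 3 arrays without CsA (-2.68 ± 0.20, adjusted p = 5.44e-10). Psmb9, the counterpart of Psmb6, changed by 0.82 at day 3 with CsA (at least 1.76-fold, with day 0 detected on 1 of 2 arrays) and by 1.69 without it, and Psmb10, the counterpart of Psmb7, by -0.64 and 0.68, all 4 called. The fall of Psmb10 with CsA was lost without replicate 2 of day 0. At day 3 Psmb9 and Psmb10 were lower with CsA than without, by -2.03 and -1.97. Both were already called lower with CsA at day 0, by -1.16 and -0.66. At day 1 Psmb8, Psmb9 and Psmb10 were all called lower with CsA, by -0.83, -0.95 and -0.63, with Psmb8 near background. Of these calls at days 0 and 1, only those of Psmb9 were kept whichever array was left out. In deltaCnA induction Psmb10 alone of the 3 was called, at day 1 (0.80, adjusted p = 0.00111).

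**Figure D5:**
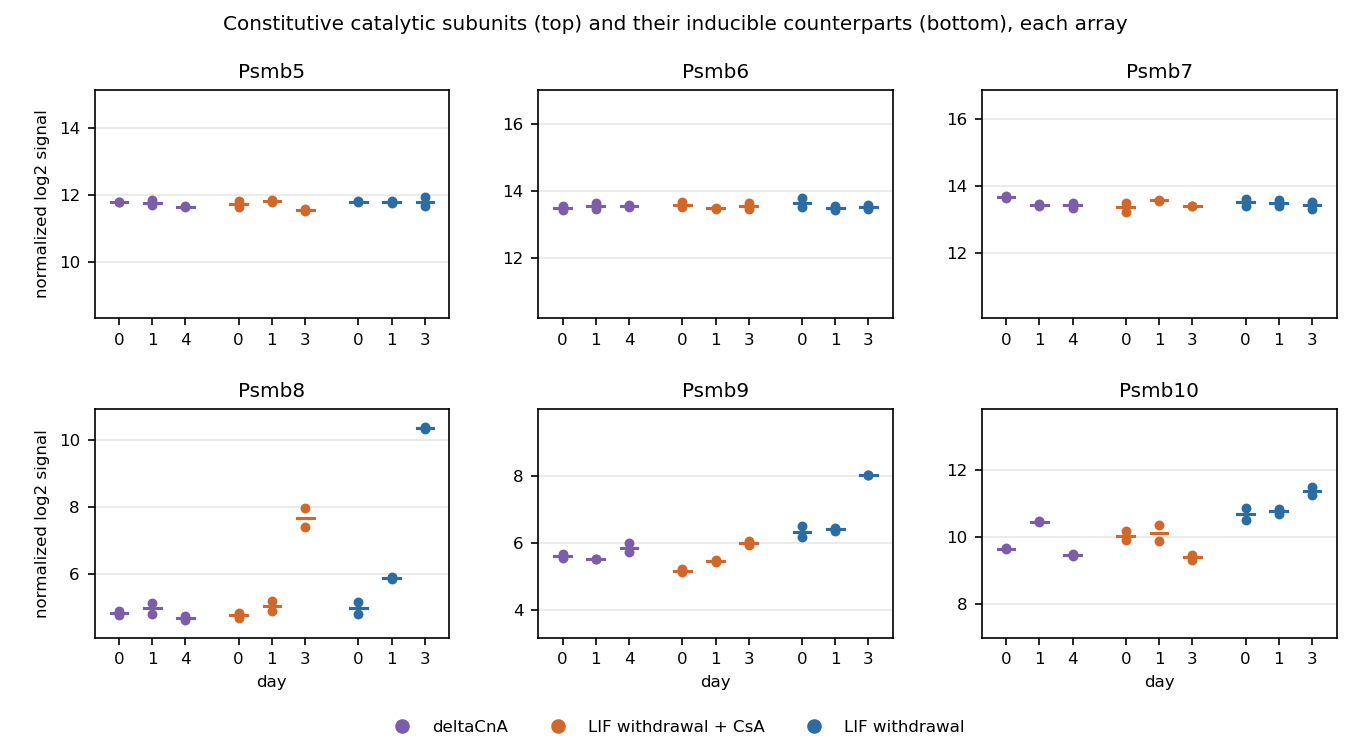
Normalized log2 signal of Psmb5, Psmb6 and Psmb7 (top) and of their inducible counterparts Psmb8, Psmb9 and Psmb10 (bottom) on each array, by day and course; every panel spans the same number of log2 units, points are arrays and bars the mean of 2. The top panels are flat, and in the bottom panels the day 3 arrays without CsA (blue) are the highest.

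Of 30 other genes of the pathway on the list, 20 had a kept probe. At day 3 without CsA 8 of the 20 were higher and 2 lower, against 18.4% and 19.8% of all genes. The higher ones included Psme1 (1.63) and Psme2 (1.35), which form the interferon-inducible activator of the core, and Vcp (0.30), the segregase that feeds substrates to the proteasome. The lower ones were Psmg1 (-0.29), a core assembly chaperone, and Ubqln4 (-0.32), a shuttle factor. Leaving out replicate 2 of day 0 or replicate 2 of day 3 ended the calls of Vcp, Psmg1 and Ubqln4. That of Psmg1 was also lost without replicate 1 of day 3, and that of Ubqln4 without replicate 1 of day 0. With CsA at day 3 there were 6 higher and 2 lower, against 14.9% and 14.7% of all genes. Among them were Psme1 (0.61), Psmg1 (-0.36) and Nfe2l1 (0.59). Without replicate 2 of day 0 with CsA, neither Psmg1 nor Nfe2l1 was called, and the call of Psmg1 was also lost when replicate 1 of its day 3 group was left out. Between CsA and no CsA at day 3, 4 were higher and 9 lower, against 19% and 19.1% of all genes. All 3 core assembly factors with a probe were among the lower, Pomp (-0.45), Psmg1 (-0.32) and Psmg3 (-0.48). All 3 calls were lost without replicate 2 of day 3 without CsA or replicate 1 of day 3 with CsA, and those of Psmg1 and Psmg3 also without replicate 1 of day 3 without CsA. None of these 3 assembly factors was called between CsA and no CsA at day 0, where their median was -0.21. Nor did any pass for the difference between the courses at day 3 (median -0.27).

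Nfe2l1, the factor that raises transcription of proteasome genes when proteasome activity is low, read 12.20 and 12.18 at day 3 with CsA, against 11.71 and 11.18 without it. Both CsA arrays were higher (0.74 ± 0.15, SE, n = 2 arrays a group, adjusted p = 0.000279), and the change over time also differed between the courses (0.63 ± 0.21, adjusted p = 0.0404). The first call was kept whichever array was left out, and the second in 2 of 8 such fits. Of 9 other processing settings, 5 kept the second call. Its relative Nfe2l2 was higher with CsA at day 3 as well (0.48, adjusted p = 0.0138) and fell at day 1 of deltaCnA induction (-0.61, adjusted p = 0.0112). The first of these was lost without replicate 2 of day 3 without CsA or replicate 1 of day 3 with CsA, and the second without replicate 2 of day 0 or replicate 1 of day 1. Of the 4 subunit genes with TGACNNNGC in the promoter window, none was called between CsA and no CsA at day 3 by limma. Only 1 (Psmb5, lower) had an unadjusted p under 0.05. Over all genes 38.1% were called there, and 4 genes are too few to set against that share. Whether Nfe2l1 acts on these genes was not tested.

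Across the 9 groups, the lid genes resembled each other more than the core genes did. The median correlation between pairs was 0.58 in the lid and 0.56 among the ATPases, against 0.03 in the alpha ring, -0.00 in the beta ring and 0.21 over all 32. These are descriptions over 9 group means that share the same arrays and normalization, and no test was made. Some core genes varied little between groups beside their spread within groups, as Psma1 (range 0.14, SD 0.14) and Psmb6 (0.17, SD 0.11). A low correlation between such genes does not show that they run apart. The mean of the 32 genes' standardised profiles was 0.63 at day 0, 0.11 at day 1 and -0.66 at day 3 without CsA, and 0.21, 0.09 and -0.80 with it. In ideltaCnAES cells it was 0.16, 0.29 and -0.03 at days 0, 1 and 4. The subunits closest to the mean of the others were Psmd13 (r = 0.94), Psmc2 (0.90), Psmd3 (0.84) and Psmd7 (0.83), and the farthest was Psmb1 (-0.52), a structural beta subunit. Among all other genes, the profiles most like that mean were those of Cnot3 (r = 0.98), Pcolce2, Mcm4, Setd1b, Zfp296, Fxyd4, Chtf18, Nifk, Trim28 and Map2k3 (all 0.96 or above, 9 groups).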

How the data were processed

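Total RNA was prepared with Trizol, and biotinylated cRNA with an Ambion kit, per the labels. The probe intensities deposited by the authors carry no normalization between arrays, per the file headers, and each has a deposited detection p-value. An array held 31.15% to 35.24% of values under 0, so some background was removed before deposit. The sources used here name no scanner software. The deposited series matrix, also linear intensities (column medians 10.86 to 10.90, scaling not stated), served as an alternative.

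With limma 3.58.1 in R 4.3.3, the background was modelled (normexp from detection p-values, offset 16), then quantile normalization and the log2 transform were applied. Of 46632 probes, 29976 carried 1 symbol, 10 several and 16646 none, and 29921 matched current RefSeq names by Entrez identifier. The 21691 probes kept were those detected (p under 0.05) in both replicates of some group; the brightest stood for its gene. Of the 32 subunit genes, 11 had 2 or more kept probes. The 11 comparisons were contrasts in 1 model of 9 group means over 18 arrays (9 residual degrees of freedom, eBayes with trend), adjusted by Benjamini-Hochberg within each. Other probes of a gene were tested with the same model in a separate fit over the 21691 kept probes, adjusted over those probes. The script was tested on simulated data. Sample titles gave groups and replicate numbers.

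Any subunit could be named. The rule fixed the 8 called subunits with the largest change per comparison, Psmb5, Psmb6, Psmb7 and Psmc1 throughout, up to 6 called related genes and the 10 most similar genes. The subunits, lists and tests were chosen with earlier results of these data known.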

Additional observations from a re-analysis of the deposited data

Results flagged for a closer look

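For 1 of the 32 subunit genes and 6 related genes, the change from day 0 to day 3 of LIF withdrawal differed between the course with CsA and the course without it, by the test of that difference in the limma fit (change with CsA minus change without, n = 2 arrays a group). Over all genes 15.3% passed that test. Psmc1 differed by 5.75 (adjusted p = 0.00284), a fitted value that rests on groups below background. The inducible catalytic subunits differed by -2.47 for Psmb8 (adjusted p = 1.82e-06), also a fitted value since Psmb8 was detected on 0 of 2 day 0 arrays with CsA and 1 of 2 without, -0.867 for Psmb9 (adjusted p = 0.0165, day 0 with CsA detected on 1 of 2 arrays) and -1.32 for Psmb10 (adjusted p = 8.4e-05). The activator subunits differed by -1.02 for Psme1 (adjusted p = 0.000258) and -1.23 for Psme2 (adjusted p = 1.3e-05). Nfe2l1, the regulator of proteasome genes, differed by 0.628 (adjusted p = 0.0404), a call kept in 5 of 9 other processing settings. Psmb10 was called lower at day 3 with CsA (-0.64) and higher without it (0.68). Nfe2l1 was higher with CsA (0.59), and without CsA it gave -0.04 and was not called. Leaving out 1 array ended the call of Psmb9 in 2 of 8 fits (replicate 1 of day 0 without CsA, replicate 2 of day 0 with CsA), and the call of Nfe2l1 in 6 of 8, where it was kept without replicate 1 of day 3 without CsA or replicate 1 of day 0 with CsA.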

How the results depend on the processing

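Of 27 called subunit results, 10 kept their call in every setting and without every single array, and 0 reversed. The number of subunits called moved as follows. With median scaling it was 16 at day 3 without CsA (10 in the reported fit) and 2 between CsA and no CsA at day 1 (0 in the reported fit). With the mean of all kept probes it was 0 at day 1 without CsA (1 in the reported fit) and 2 between CsA and no CsA at day 0 (1 in the reported fit). Fitting only the arrays compared gave 0 at day 1 without CsA. With no detection filter, and with no intensity trend, it was 0 between CsA and no CsA at day 0. With only members detected on all 18 arrays, a setting chosen after seeing the data, it was 0 for the difference between the courses at day 3 (1 in the reported fit). Leaving out 1 array in turn gave 0 to 2 at day 1 and 5 to 9 at day 3 without CsA, 2 to 9 at day 3 with CsA, 0 to 0 at day 0 and 3 to 6 at day 3 between CsA and no CsA, 1 to 3 for the difference at day 3, and 1 to 3 at day 1 of deltaCnA induction. Those fits leave 1 array in 1 of the groups, and in most of them fewer of all genes were called too. With the replicate number as a block, 2 subunits were called for the difference at day 3 (1 in the reported fit). At day 1 of deltaCnA induction 2 were called (1 in the reported fit). The added genes were Psmd14 (0.64, adjusted p = 0.0277) and Psmd2 (-0.40, adjusted p = 0.0494). The labels give no source for a pairing, and the arrays did not meet the rule that every pair of groups exceed 0.1: over 36 pairs of groups the correlation of same-numbered deviations ran from -0.21 to 0.35 (median 0.06), over 0.1 in 16. Over all genes, fitting only the arrays compared moved the calls to 734 between CsA and no CsA at day 0 (1447 in the reported fit) and to 685 at day 4 of induction (376 in the reported fit). Median scaling gave 1886 of all genes as higher and 2272 as lower at day 3 without CsA, against 2020 and 2171 in the reported fit. A fit with the BeadChip as a block was not run, because the columns name no chip. The dim probes of Psma5, Psmc1, Psmc2 and Psmd6 are limited by their signal over background.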
